A study of Mus musculus with 9 samples.

Results

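The Krüppel-like factor (KLF) family was examined in mouse bone marrow-derived Mϕs through 10 of its members, Klf2, Klf3, Klf4, Klf6, Klf7, Klf9, Klf10, Klf11, Klf13 and Klf16. They were the 10 rows, of 53379 gene IDs in the FPKM table, whose Ensembl ID carries one of these symbols, and all 10 entered the tests. Marrow cells of C57BL/6 mice, 3 mice by the series' design text, were grown for 3 days in 10 ng/ml CSF-1 (MCSF), the growth factor that turns marrow progenitors into Mϕs. They were then kept for 4 days in MCSF alone (control), in MCSF with 10 ng/ml IL-4, or in MCSF with 100 ng/ml IL-6, with 3 libraries per group. These doses and times are those of the labels, whereas the study's methods give another dose of IL-4 and its legends another dose and time for both cytokines. IL-4 signals mainly through STAT6 and IL-6 mainly through STAT3, and the comparisons ask how each cytokine alters gene expression in Mϕs that otherwise receive MCSF only.

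KLF proteins share a C-terminal block of C2H2 zinc fingers that binds CACCC and GC-rich boxes, and they differ in the N-terminal part that recruits coactivators or corepressors. Klf2, Klf4, Klf6 and Klf7 belong to the branch best known for activating transcription. Klf3 represses through the corepressor CtBP, and Klf9, Klf10, Klf11, Klf13 and Klf16 carry a motif that binds the corepressor Sin3a. In myeloid cells Klf4 is known for its part in monocyte differentiation and in the response of Mϕs to IL-4, and Klf2 for restraining inflammatory activation.

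The upstream sequences of 3 members are shown because Klf4 and Klf9 held the largest mean differences between the IL-4 and control groups among the 10 and Klf2 was one of the pair that rose with IL-6. Each sequence ends just before the annotated start of the gene (RefSeq, GRCm38.p6) and is written 5′ to 3′ on the gene's strand. Capitals mark the GC box GGGCGG on either strand (CCGCCC when read from the other strand), the CACCC box on either strand and the palindromic STAT-type motif TTCNNNGAA. The Klf2 sequence leaves out the last 29 bases of its 250-base window, which the GENCODE annotation counts as exon.
Klf4, chr4:55532476-55532725, minus strand: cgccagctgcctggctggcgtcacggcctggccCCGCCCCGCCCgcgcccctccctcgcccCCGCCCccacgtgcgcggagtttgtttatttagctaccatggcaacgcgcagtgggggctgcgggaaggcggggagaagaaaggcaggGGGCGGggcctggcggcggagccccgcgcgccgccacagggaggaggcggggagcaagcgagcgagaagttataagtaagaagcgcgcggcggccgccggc
Klf9, chr19:23140976-23141225, plus strand: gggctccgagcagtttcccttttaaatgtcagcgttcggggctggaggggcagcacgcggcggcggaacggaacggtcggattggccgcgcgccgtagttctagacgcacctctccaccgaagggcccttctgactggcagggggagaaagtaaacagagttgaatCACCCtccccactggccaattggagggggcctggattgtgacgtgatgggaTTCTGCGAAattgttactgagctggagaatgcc
Klf2, chr8:72318812-72319032, plus strand: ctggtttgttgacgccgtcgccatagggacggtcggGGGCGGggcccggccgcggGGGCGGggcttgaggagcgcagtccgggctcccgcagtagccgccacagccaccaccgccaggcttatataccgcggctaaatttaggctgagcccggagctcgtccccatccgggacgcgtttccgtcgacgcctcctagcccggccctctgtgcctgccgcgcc
Klf4 held 4 GC boxes, the leftmost pair sharing a base, and no CACCC box. Klf9 was the only one of the 8 members found in the promoter table with TTCNNNGAA, and it held 1 CACCC box and no GC box. Over the full 250-base windows, GGGCGG was present in 7 of these 8 members and in 32.7% of 32851 promoters, CACCC in 5 of 8 and in 52.0% of all promoters, and TTCNNNGAA in 1 of 8 and in 7.02%. The same STAT-type motif with a spacer of 4 bases, the spacing STAT6 favours, found in 5.85% of all promoters, and the cAMP response element TGACGTCA, found in 1.55%, had no match in the 8 windows. The GC content of the 8 windows ran from 59.2% to 78.4%, against a median of 52.4% over all promoters. Such matches describe letters in a window and do not show binding.

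The libraries held 29988160 to 39909571 fragments, read back from the steps of the FPKM values. Socs3, a STAT3 target, was higher with IL-6 than in the control by 5.12 ± 0.262 (SE) on the log2(FPKM + 0.1) scale, and Retnla, a STAT6 target, was higher with IL-4 by 11.69 ± 0.350 and with IL-6 by 2.44 ± 0.350. The Mϕ markers Csf1r, Adgre1 and Cd68 were high in every group. The summed FPKM of 7 Mϕ markers was nevertheless lowest under IL-4, at 1327 to 1542. It ran from 2853 to 2901 in the control and from 2416 to 2517 with IL-6. The 7 markers did not move together. In limma 5 were lower and 0 higher under IL-4, whereas IL-6 lowered 1 (Cd68) and raised 1 (Cd14). Cd14 averaged 125 FPKM under MCSF alone, 22.8 under IL-4 and 300 under IL-6. Itgam averaged 35.3, 60.1 and 66.6 in that order. Its cytokine-treated libraries all lay above the control libraries, but neither difference was called. Granulocyte markers (8 genes) summed to 4729 to 8431 FPKM in the control, 2135 to 3975 under IL-4 and 7861 to 10916 under IL-6, so RNA of granulocyte lineage genes was present throughout and lowest with IL-4, and the part of such cells in the KLF values was not tested. Intestinal secretory genes other than Lyz1 (13 genes) summed to 32.0 to 47.1 FPKM in the control libraries and in IL-4 #1 and to at most 0.175 in the other 5 libraries, so this set of libraries runs nearly along the groups. IL-4 #3 stood apart from IL-4 #1 and #2, and the difference varied with exon length. The median log2 difference over tested genes was 0.21 up to 1000 bases, 0.49 for 1000 to 2000 bases and -1.09 above 8000 bases.

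Klf6 was the most abundant member in every library, and Klf13 came next in the control and with IL-6. In the control the mean FPKM values were 44.9 ± 6.76 (SD, n = 3) for Klf6, 18.2 ± 2.93 for Klf13, 9.26 ± 1.21 for Klf10, 7.52 ± 1.32 for Klf2, 6.82 ± 1.95 for Klf3, 4.95 ± 0.411 for Klf16, 2.78 ± 1.08 for Klf9, 2.60 ± 0.292 for Klf11, 1.51 ± 0.674 for Klf7 and 0.897 ± 0.279 for Klf4. FPKM is scaled by length, so levels can be set side by side between genes as far as the exon models hold. The Klf9 values match a length of 3263 bases, against 4815 in the GENCODE M21 annotation. Its place among members of similar level therefore depends on the model. The order with IL-4 also includes IL-4 #3, whose values differed with exon length. In this order Klf10, Klf2, Klf3 and Klf16 overlapped each with the next in their library ranges, as did Klf9 with Klf11 and Klf7 with Klf4. With IL-4 the second to sixth places were held by Klf10, Klf9, Klf4, Klf13 and Klf2, whose ranges overlapped each with the next. With IL-6 Klf3 (12.5 ± 1.07), Klf2 (12.5 ± 1.52) and Klf10 (10.5 ± 0.768) followed Klf13, and each overlapped with the next.

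The make-up of the family's mRNA differed between groups. Klf6 made up 43.8% to 46.0% of the summed FPKM of the 10 genes in the control libraries, 30.9% to 38.1% with IL-4 and 37.4% to 42.9% with IL-6. Klf4, the least abundant member in the control at 0.749% to 1.05%, took 11.3% to 15.2% with IL-4 and 1.76% to 2.03% with IL-6. The share of Klf13 lay at 17.6% to 18.9%, 10.4% to 10.98% and 20.6% to 21.9% in the same order of groups. For these 3 genes the library ranges of the groups did not overlap, except that the IL-6 range of Klf6 reached into that of IL-4.

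**Figure D1:**
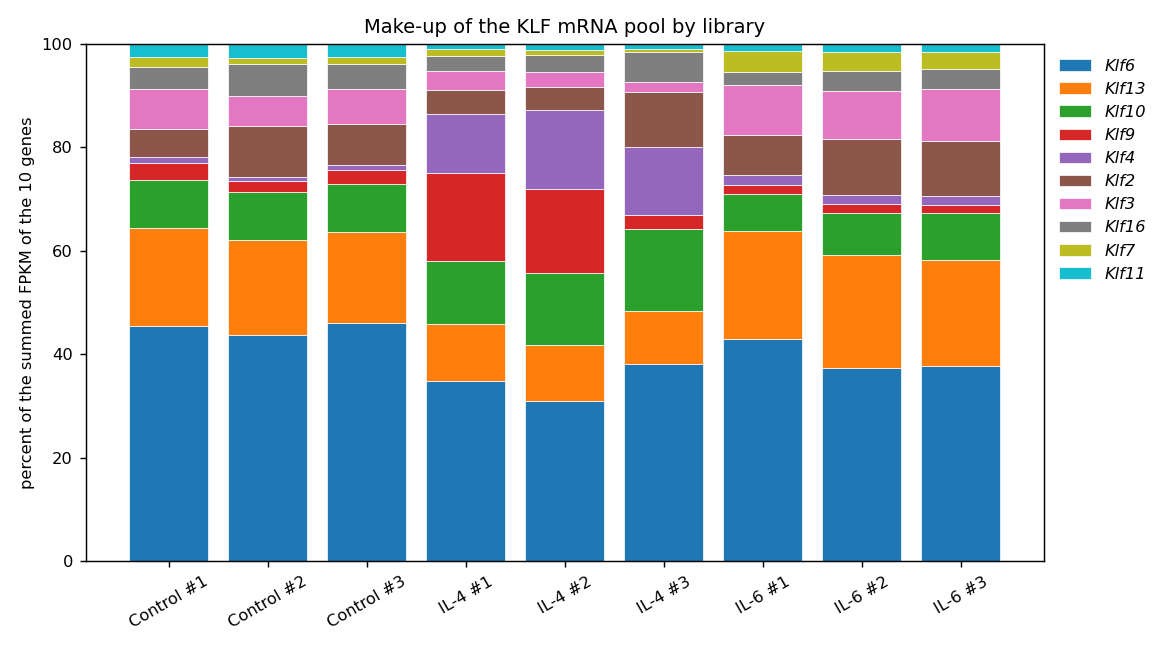
Percent of the summed FPKM of the 10 KLF genes taken by each gene (vertical axis) in each of the 9 libraries (bars). Klf4 (purple) widens from a thin band in the control bars, 0.749% to 1.05%, to 11.3% to 15.2% in the IL-4 bars, and Klf9 (red) is wide in IL-4 #1 and #2 and narrow in IL-4 #3.

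Between IL-4 and the control, 2 of the 10 members were called higher, Klf4 and Klf10, and 1 lower, Klf11, at a Benjamini-Hochberg adjusted p under 0.05 in limma over all tested genes. Of the 12824 genes tested, 8.55% were called higher and 16.3% lower, and no excess of members is read from counts of this size. With median-ratio scaling of the libraries, the background was 12.3% higher and 12.6% lower, and the same number of members, 3, was called. The median log2 difference was 0.08 over the members and -0.20 over all tested genes. In bulk RNA, a change in the share of cells that express a gene and a change in RNA per cell cannot be told apart. With 3 libraries against 3, an exact two-sided permutation test on a single gene cannot go below p = 0.1, which each pair of groups with no overlap reached.

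Between IL-6 and the control, Klf2 and Klf4 were called higher and no member was called lower. At an unadjusted p under 0.05 in limma, 4 were higher and 0 lower, and limma voom on recovered fragments called 2 higher and 0 lower. The shares of all genes at an unadjusted p or by voom are not given, so no excess of members is read from these counts. In the main fit, 4.58% of all tested genes were called higher and 3.82% lower (5.77% and 5.84% after quantile normalization). The median log2 difference was 0.39 over the members against 0.00 over all genes. Between IL-6 and IL-4, 4 members were called higher with IL-6 (Klf2, Klf3, Klf7 and Klf13) and 3 lower (Klf4, Klf9 and Klf10), against 20.8% and 13.3% of all genes (17.8% and 17.2% with median-ratio scaling). The median over the members was 0.24, and over all genes 0.22. Without IL-4 #3, 15.3% of all tested genes were called higher and 22.5% lower with IL-4, 12.3% and 12.4% with IL-6 against the control, and 24.7% and 18.5% with IL-6 against IL-4, so counts from that fit are read against these shares. The comparisons share libraries and are therefore not independent of each other.

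**Figure D2:**
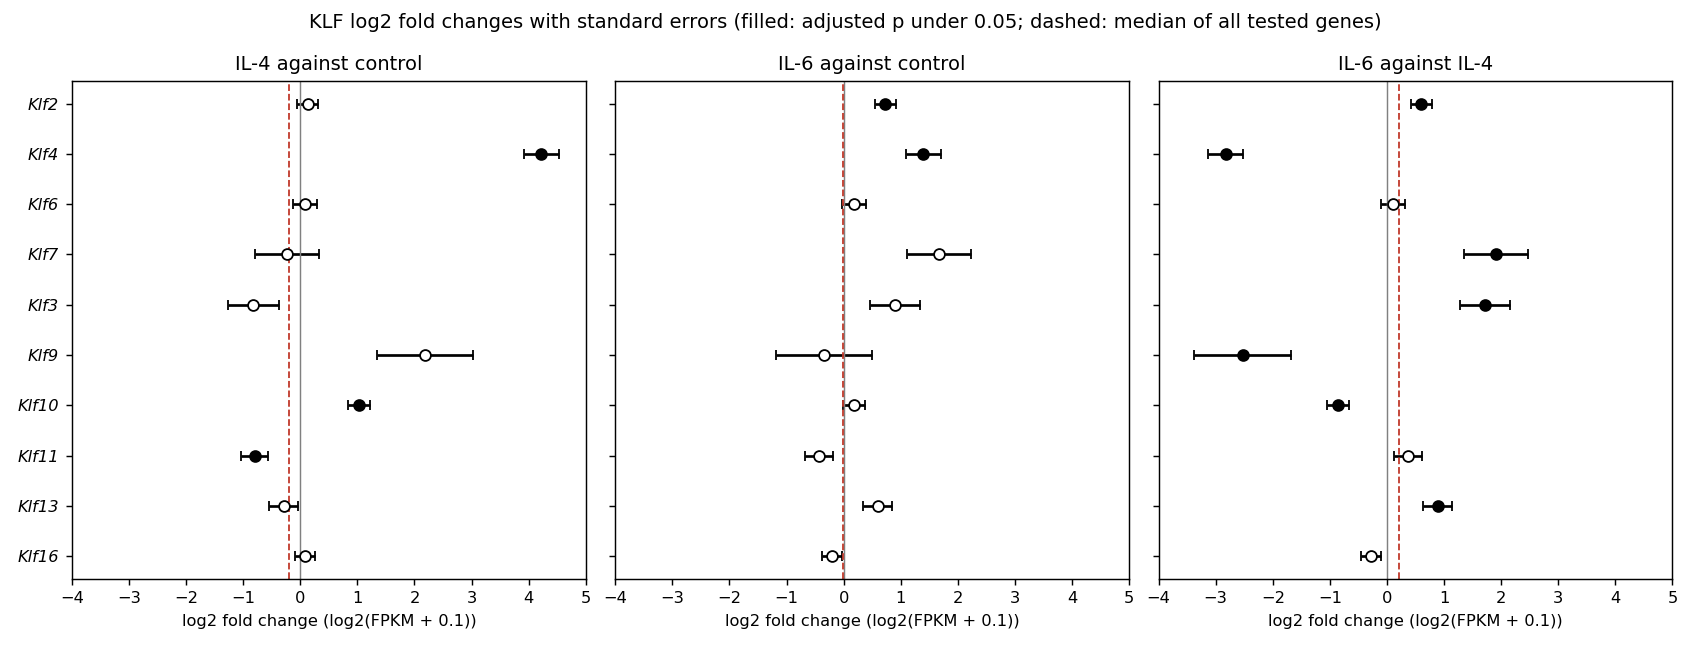
Difference in log2(FPKM + 0.1) with its standard error (horizontal axis) for each KLF gene in the 3 comparisons, 3 libraries per group. Filled points have an adjusted p under 0.05, the dashed line is the median of all tested genes, and Klf4 stands farthest to the right with IL-4 at 4.22.

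Klf4, on chromosome 4 (55527143 to 55532466, minus strand, GRCm38), showed the largest response of the family. Its FPKM was 1.20, 0.656 and 0.832 in the 3 control libraries, 17.8, 26.6 and 12.2 under IL-4, and 2.84, 2.35 and 2.2 under IL-6. The 3 groups did not overlap, and the IL-4 libraries were the highest of all. These values came from 60 to 128 fragments per control library, 1488 to 2459 with IL-4 and 206 to 302 with IL-6. The mean with IL-4 was 21.1-fold that of the control (log2 difference 4.22 ± 0.306, adjusted p = 4.79e-05), and the mean with IL-6 was 2.75-fold (1.39 ± 0.306, adjusted p = 0.0298). The IL-6 level was lower than the IL-4 level by a log2 difference of -2.83 ± 0.306 (adjusted p = 0.000273). Within the set of libraries that hold intestinal secretory RNA, IL-4 #1 alone was 19.9-fold the mean of the control. The IL-4 call held without each of the 9 libraries. The IL-6 call against the control was lost, at adjusted p values of 0.0858 to 0.116, without Control #2, Control #3, IL-6 #1, IL-6 #2 or IL-6 #3. It was also lost with a pseudocount of 1 (0.0710) and with no filter (0.0569). With that set (Lyz1 left out) as a covariate the adjusted p was 0.263. All control libraries are in that set and all IL-6 libraries outside it, so only the IL-4 libraries inform the set effect in this fit.

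Klf2 (chromosome 8, 72319033 to 72321656, plus strand) moved with IL-6. It stood at 6.10, 8.70 and 7.76 FPKM in the control, 7.22, 7.70 and 9.79 under IL-4 and 10.7, 13.4 and 13.4 under IL-6. All IL-6 libraries were above all others, while the control and IL-4 ranges overlapped. The IL-6 mean was 1.66-fold that of the control (log2 difference 0.73 ± 0.183, adjusted p = 0.0461) and 1.52-fold that of IL-4 (0.60 ± 0.183, adjusted p = 0.0358). Between IL-4 and the control the difference was 0.13 ± 0.183 (adjusted p = 0.628). The call between IL-6 and the control lay close to the threshold and was kept without IL-4 #3 but not without any other single library, where the adjusted p ran from 0.0505 to 0.170, and it was 0.116 with median-ratio scaling. The call between IL-6 and IL-4 was lost, at 0.0615 to 0.116, without Control #3, IL-4 #1, IL-4 #2, IL-6 #2 or IL-6 #3, and was 0.216 with median-ratio scaling. Klf2 is also a gene of endothelial cells, whose 6 markers summed to 3.05 to 3.39 FPKM in the control, 1.91 to 3.77 under IL-4 and 4.71 to 7.86 under IL-6. Among these markers Emcn and Cldn5 averaged under 0.01 FPKM in every group and Pecam1, which Mϕs also express, made up most of the sum. Kdr (0.278 FPKM in the control, 0.0880 under IL-4 and 0.563 under IL-6) and Cdh5 (0.0714, 0.197 and 0.142) were below the filter, and both were higher in all IL-6 than in all control libraries. The part of such cells in the Klf2 values was not tested.

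Klf6 (chromosome 13, 5861482 to 5870394, plus strand), an early-response factor expressed in many tissues, did not separate the groups. Its FPKM was 51.9, 38.4 and 44.5 in the control, 54.7, 54.2 and 35.1 under IL-4 and 60.0, 46.2 and 47.0 under IL-6. The ranges overlapped in all pairs of groups. The log2 differences were 0.08 ± 0.209 with IL-4 (adjusted p = 0.811) and 0.18 ± 0.209 with IL-6 (adjusted p = 0.678), which does not show that the levels were equal.

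Klf7 (chromosome 1, 64029447 to 64122282, minus strand), best known from neurons, was highest in the IL-6 libraries. Its values were 2.25, 0.923 and 1.37 FPKM in the control, 2.09, 1.86 and 0.404 under IL-4 and 5.81, 4.59 and 4.00 under IL-6. The IL-6 libraries lay above all others, and IL-4 #3 lay below all others. The IL-6 mean was 3.31-fold that of IL-4 (log2 difference 1.91 ± 0.559, adjusted p = 0.0313) and 3.17-fold that of the control (1.67 ± 0.559, adjusted p = 0.123, not called). The call against IL-4 was lost, at 0.0526 to 0.10, without Control #3, IL-6 #1, IL-6 #2 or IL-6 #3. Without IL-4 #3 the difference from the control had an adjusted p of 0.00541.

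Klf3 (chromosome 5, 64803388 to 64832901, plus strand), the CtBP-binding repressor, had the longest exon model of the members at 11243 bases. It stood at 8.91, 5.05 and 6.51 FPKM in the control, 5.87, 5.23 and 1.65 under IL-4 and 13.6, 11.4 and 12.5 under IL-6. Every IL-6 library was above every control and IL-4 library. The IL-6 mean was 2.94-fold that of IL-4 (log2 difference 1.72 ± 0.442, adjusted p = 0.0186) and 1.83-fold that of the control (0.90 ± 0.442, adjusted p = 0.297, not called). The first was lost without IL-6 #1 (adjusted p = 0.0630) or IL-6 #3 (0.0568), and the second passed without IL-4 #3 (0.0126).

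**Figure D3:**
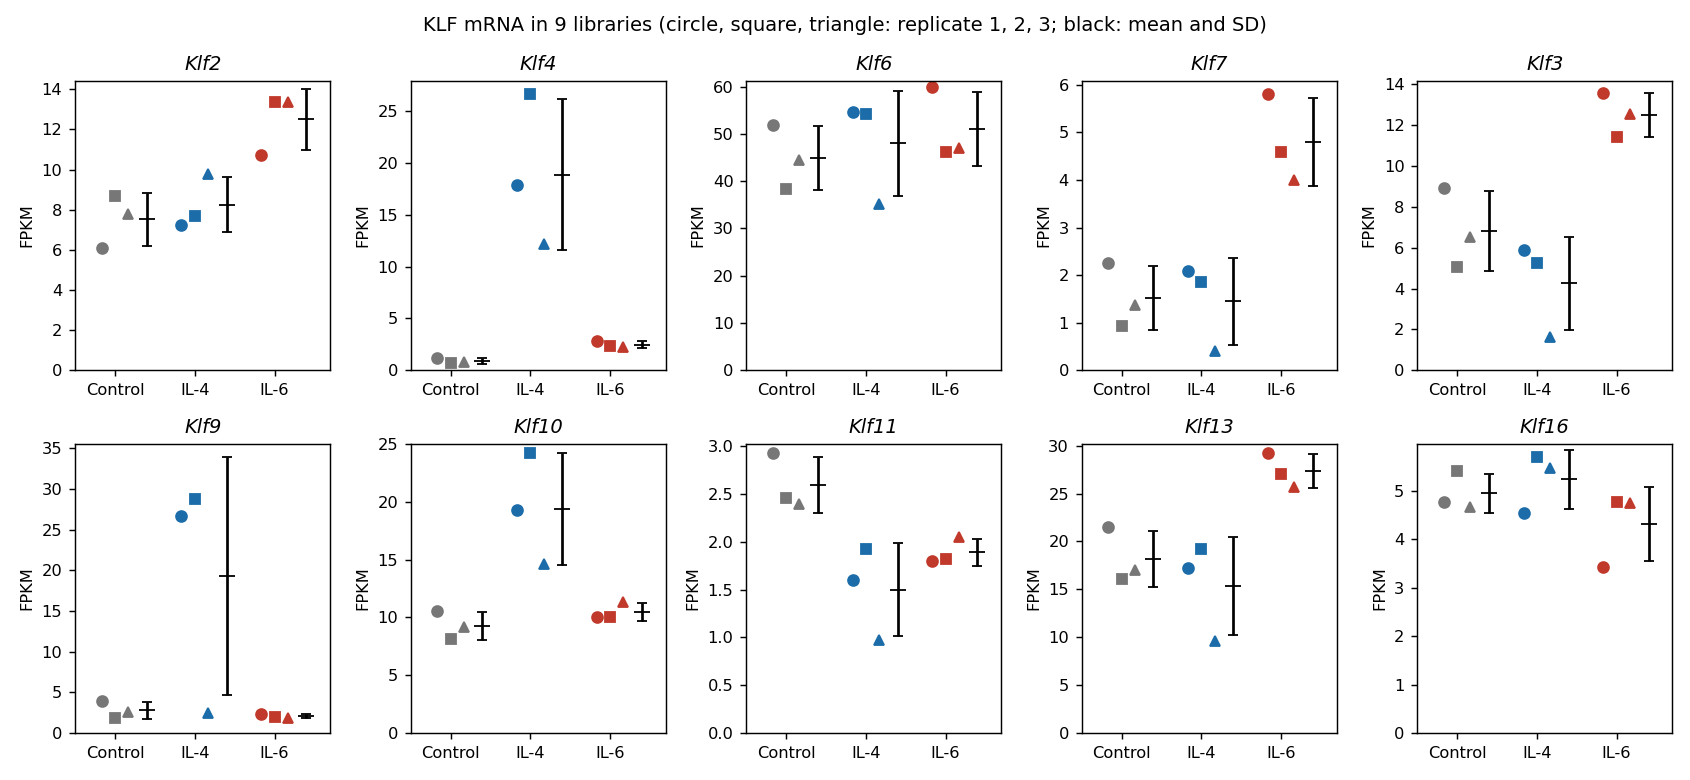
FPKM (vertical axes, each from 0) of the 10 KLF genes in the 9 libraries, grouped as control, IL-4 and IL-6, with replicates 1, 2 and 3 as circles, squares and triangles and the mean and SD of 3 libraries in black. Klf4 and Klf10 are highest with IL-4, Klf2, Klf3, Klf7 and Klf13 with IL-6, and for Klf9 the triangle of IL-4 lies at 2.43 below the circle and square at 26.7 and 28.8.

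Among the Sin3a-binding members, Klf10 (chromosome 15, 38291463 to 38300706, minus strand), an early gene of the TGF-β response, rose with IL-4. Its FPKM was 10.5, 8.12 and 9.13 in the control, 19.3, 24.2 and 14.6 under IL-4 and 10.0, 10.0 and 11.4 under IL-6. All IL-4 libraries were above all others, and the control and IL-6 ranges overlapped. The IL-4 mean was 2.09-fold that of the control (log2 difference 1.04 ± 0.192, adjusted p = 0.00587), and the IL-6 level was lower than the IL-4 level (-0.85 ± 0.192, adjusted p = 0.0106). Both calls held without each of the 9 libraries, and IL-4 #1 alone was 2.09-fold the mean of the control. With the set of libraries that hold intestinal secretory RNA as a covariate, the difference from the control was 1.06. This restates IL-4 #1 against the control, since IL-4 #2 and #3 lie outside that set.

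Klf11 (chromosome 12, 24651274 to 24662789, plus strand), the closest relative of Klf10, took the opposite direction with IL-4. It stood at 2.93, 2.46 and 2.4 FPKM in the control, 1.60, 1.92 and 0.970 under IL-4 and 1.80, 1.82 and 2.06 under IL-6. All control libraries were above all cytokine-treated ones. The IL-4 mean was 0.578 of the control mean (log2 difference -0.80 ± 0.240, adjusted p = 0.0429), and the IL-6 difference was -0.43 ± 0.240 (adjusted p = 0.366). The IL-4 call was kept without IL-4 #2 or IL-4 #3 but lost, at adjusted p values of 0.0558 to 0.139, without any one of the other 7 libraries, and it was 0.0633 with the mouse as a replicate block. It was also lost with no filter (0.0881) and with only the IL-4 and control libraries in the fit (0.123).

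Klf9 (chromosome 19, 23141226 to 23168134, plus strand), a glucocorticoid-induced repressor, varied more within the IL-4 group than any other member. Its FPKM was 3.95, 1.82 and 2.56 in the control, 26.7, 28.8 and 2.43 under IL-4 and 2.36, 1.99 and 1.88 under IL-6. IL-4 #1 and #2 were far above all other libraries, with 2974 and 2846 fragments, while IL-4 #3, with 316, lay inside the control range. The log2 difference between IL-4 and the control was 2.19 ± 0.846 (adjusted p = 0.0967), and without IL-4 #3 it was 3.34 (adjusted p = 7.72e-05). Between IL-6 and IL-4 it was -2.53 ± 0.846 (adjusted p = 0.0497), a call that was kept without IL-4 #3 but lost, at 0.0663 to 0.126, without any other single library. The call was also lost with limma voom on recovered fragments, with a pseudocount of 0.01, with no filter and with only the groups compared. On the log2 scale IL-4 #3 was -3.46 from the mean of the other pair, and 130 of 12824 tested genes fell further.

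The other members fell short in IL-4 #3 to different degrees. Its difference from the mean of IL-4 #1 and #2 was -2.04 for Klf7, -1.69 for Klf3, -0.92 for Klf13, -0.83 for Klf4, -0.80 for Klf11, -0.63 for Klf6 and -0.57 for Klf10, against -0.35 for the median tested gene. Klf16 (0.10) and Klf2 (0.39), the pair with the shortest exon models, were higher in IL-4 #3 than in the other pair of libraries. Over the 10 members the difference and log2 exon length had r = -0.60 with the M21 annotation's 4815 bases for Klf9 and r = -0.42 with the 3263 bases that the table's own Klf9 values matched, a description in 1 library. In this library the median gene of 2000 to 4000 bases was at -0.05 and of 4000 to 8000 bases at -0.61. The source of this library's difference was not tested.

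**Figure D4:**
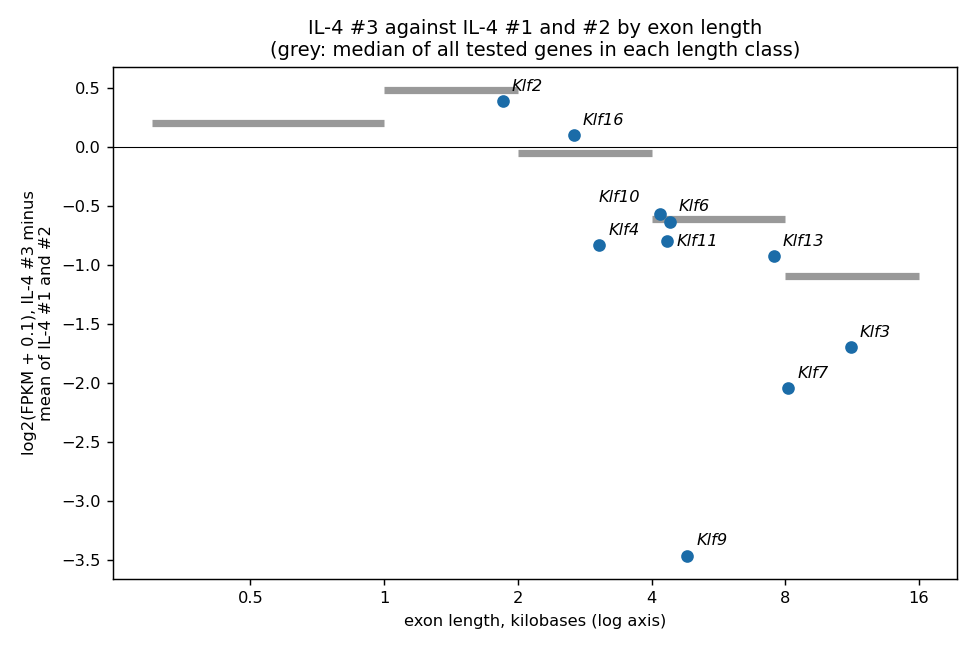
Difference in log2(FPKM + 0.1) between IL-4 #3 and the mean of IL-4 #1 and #2 (vertical axis) against exon length in kilobases (log axis) for the 10 KLF genes (blue points), with the median of all tested genes in each length class in grey. The shortest and longest classes are open-ended, the length drawn for Klf9 is 4815 bases, and Klf9 lies at -3.46, far below the grey line of its class.

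Klf13 (chromosome 7, 63886351 to 63938915, minus strand), known as an activator of Ccl5 in T cells, was highest with IL-6. It stood at 21.5, 16.1 and 17.0 FPKM in the control, 17.2, 19.2 and 9.58 under IL-4 and 29.2, 27.0 and 25.7 under IL-6. The IL-6 libraries were above all others, and the control and IL-4 ranges overlapped. The IL-6 mean was 1.78-fold that of IL-4 (log2 difference 0.89 ± 0.253, adjusted p = 0.0279) and 1.5-fold that of the control (0.59 ± 0.253, adjusted p = 0.227, not called). The former was lost, at 0.0671 to 0.0900, without IL-6 #1, IL-6 #2 or IL-6 #3, and the latter passed without IL-4 #3 (0.0107).

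Klf16 (chromosome 10, 80567124 to 80577321, minus strand) was called in no comparison. Its range was 4.67 to 5.42 FPKM in the control, 4.55 to 5.71 under IL-4 and 3.43 to 4.78 under IL-6, with overlap in every pair. Its log2 difference from the control was 0.08 ± 0.172 with IL-4 (adjusted p = 0.768) and -0.21 ± 0.172 with IL-6 (adjusted p = 0.567).

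Of the 8 other KLF genes, 7 were in the table and 1, Klf8, passed the filter on low values. Klf8, another CtBP-binding repressor, had a mean of 0.279 ± 0.0591 FPKM in the control, 1.12 ± 0.548 under IL-4 and 0.160 ± 0.0523 under IL-6. The Klf8 log2 difference was 1.57 ± 0.415 between IL-4 and the control (adjusted p = 0.0253) and -2.12 ± 0.415 between IL-6 and IL-4 (adjusted p = 0.00537). Only its IL-4 mean was above the filter of 0.5 FPKM, so Klf8 was tested because it was high with IL-4. These calls depend on that selection and are given as a description. Klf17 was at 0 in every library, and Klf12 and Klf14 were at 0 in the control libraries. Of the 9 related SP factors, which bind the same GC boxes, 4 were tested (Sp1, Sp2, Sp3 and Sp4) and none was called in limma in any comparison. Their lowest adjusted p was 0.0608, for Sp3 between IL-6 and IL-4 (1.53 ± 0.545), the only 1 of these tests with an unadjusted p under 0.05. Limma voom, which could test 3 of them, called 0, and without IL-4 #3 Sp3 was called higher with IL-6 than in either other group.

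The partners of KLF proteins are given next. Of 12 corepressors and coactivators, none was called between IL-4 and the control in limma (1 had an unadjusted p under 0.05, and voom called 0), and Hdac1, a histone deacetylase, was the 1 called with IL-6 (0.43 ± 0.0925, adjusted p = 0.0259). Between IL-6 and IL-4, Sin3a (1.07 ± 0.303, adjusted p = 0.0274) and Hdac1 (0.57 ± 0.0925, adjusted p = 0.00213) were higher and Hdac2 was lower (-0.37 ± 0.112, adjusted p = 0.0340). Without IL-4 #3, 3 of the 12 were called between IL-4 and the control (Sin3b, Sap30 and Hdac2) and 2 between IL-6 and the control (Hdac1 and Kat2b). Of 4 ubiquitin ligases reported to act on KLF proteins, Wwp1 fell from a mean of 69.1 FPKM in the control to 6.94 with IL-4 (-3.41 ± 0.389, adjusted p = 0.0005), and Fbxw7 rose (0.60 ± 0.151, adjusted p = 0.0205). None of the 4 was called between IL-6 and the control in limma, where 1 had an unadjusted p under 0.05 and voom called 0, and without IL-4 #3 Smurf1 was called higher with either cytokine.

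A list around the MEK5-ERK5-MEF2 route, which induces Klf2 and Klf4 in endothelial cells, held 10 genes, all of them tested. It mixes kinases and MEF2 factors with the histone deacetylases Hdac4, Hdac5 and Hdac7, which are not inducers, so its counts give no direction for the route. With IL-4, 2 were lower, the kinase ERK5 gene Mapk7 (-1.13 ± 0.102, adjusted p = 0.000142) and Hdac5 (-0.72 ± 0.121, adjusted p = 0.0034), and none was higher. None was called between IL-6 and the control in limma, where 1 had an unadjusted p under 0.05, while voom called 1 higher and the fit without IL-4 #3 called Hdac7 higher. Between IL-6 and IL-4, 4 were higher (Mapk7, Hdac5, Mef2d and Hdac7).

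Of 14 immediate early genes, the class to which Klf2, Klf4, Klf6 and Klf10 are often assigned, 13 were tested. With IL-4, 6 were higher (Fos, Jun, Junb, Egr2, Atf3 and Ier3) and Nr4a1 was lower (-1.52 ± 0.171, adjusted p = 0.000414). With IL-6, 6 were higher (Fos, Junb, Egr1, Ier3, Dusp1 and Nr4a1) and Egr2 and Atf3 were lower. Egr2, a zinc finger factor linked to the IL-4 response, had a mean of 7.30 FPKM in the control, 46.3 under IL-4 and 3.44 under IL-6, with log2 differences of 2.61 ± 0.217 and -1.06 ± 0.217 from the control (adjusted p = 0.000105 and 0.0218). The median of the 13 was 0.59 with IL-4 and 0.71 with IL-6. Without IL-4 #3, the counts were 7 higher and 2 lower with IL-4 and 9 higher and 2 lower with IL-6, in a fit that also called more genes overall.

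Reported KLF2 target genes went in both directions against the control. The list was not split by whether KLF2 is reported to raise or lower each gene, so its counts give no direction for KLF2. Of 6, 5 were tested. With IL-4, Itgb7 (1.30 ± 0.257) and Cdkn1a (0.99 ± 0.0992) were higher, and S1pr1 (-2.45 ± 0.150) and Cxcr3 (-3.46 ± 0.218) were lower, at adjusted p values from 1.78e-05 to 0.00764. With IL-6, under which Klf2 was higher, Itgb7 (1.13 ± 0.257, adjusted p = 0.0326) and Cdkn1a (0.72 ± 0.0992, adjusted p = 0.00369) were higher, Cxcr3 was lower (-1.14 ± 0.218, adjusted p = 0.0156), and S1pr1 (0.25 ± 0.150, adjusted p = 0.412) did not pass. S1pr1 and Cxcr3 are also expressed by lymphocytes, whose 8 markers summed to 61.5 to 90.0 FPKM in the control, 27.2 to 36.9 under IL-4 and 63.9 to 83.7 under IL-6. Much of this fall was in Cd4 alone, at a mean of 34.6 FPKM in the control and 0.526 under IL-4, while Cd3e (0.0506 and 0.141), Cd3g (0.0757 and 0.224) and Nkg7 (2.65 and 4.44) had higher means under IL-4, and the part of lymphocytes in these values was not tested.

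The genes whose log2 values followed the 3 most abundant members most closely over the 9 libraries are given as a description, since the libraries share their groups. They were Upf3b (Pearson r = 0.978), Fam210a (0.975) and Lnpk (0.975) for Klf6, Abcc1 (0.995), Gng12 (0.993) and Lztfl1 (0.991) for Klf13, and Gramd4 (0.983), Smg5 (0.981) and Slc7a1 (0.979) for Klf10.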

How the data were processed

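Per the labels and the study's methods, RNA was extracted with TRIzol and RNeasy columns, libraries were made with a stranded TruSeq mRNA kit and sequenced on a HiSeq2500, and the submitters' processing notes name STAR 2.4.2a, Cufflinks 2.2.1 and GRCm38. The authors deposited 1 table of FPKM values for 53379 gene IDs in 9 libraries. The members and gene lists were chosen with earlier results of these data known.

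The 12824 genes averaging 0.5 FPKM or more over the libraries were tested on log2(FPKM + 0.1) with limma 3.58.1 (R 4.3.3; trend, robust), all 3 groups in 1 model, with Benjamini-Hochberg adjustment over all tested genes. Fold changes on this scale understate those of low genes. IDs were matched to GENCODE M21 with version for 94.8%; FPKM times exon length gave whole fragments for 100.0% of 141433 values of 1 to 1000 fragments (tolerance 0.05). Klf9 is listed under another version, and its length was read from its steps. All members were named, along with list genes that passed or stood at 0 and, for the 3 most abundant members, the 3 most correlated genes. Column suffixes were read as mouse numbers, since the design text names 3 mice, which pairs the libraries. Deviations of same-numbered libraries correlated at -0.415 to 0.521. Scripts were tested on simulated data. A gene of the lists is not reported here. At most 0.350% of the 50-base words of a member were shared with another gene, and genes that overlap members stayed at or below 0.681 FPKM.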

Additional observations from a re-analysis of the deposited data

How the results depend on the processing

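Over 21 alternatives, Klf4 kept its calls between IL-4 and the control and between IL-6 and IL-4, and Klf10 lost its own only with the library set as a covariate (with and without Lyz1 in its definition between IL-4 and the control, with Lyz1 between IL-6 and IL-4). The removal of trends on length and GC content and the definition of the set without Lyz1, which the IL-6 libraries express, were chosen after seeing the data, as were the counts of list genes by voom and without IL-4 #3 and the shares of all genes called. The count of members called between IL-4 and the control, 3, was 1 with either set as a term. It was 5 with length and GC trends removed (14.8% of all genes called higher and 17.4% lower) and 4 with quantile normalization (12.1% and 14.4%). It was 2 with no filter (3.88% and 5.93%) or only the groups compared (5.23% and 8.77%), and 2 to 4 with 1 library left out. Between IL-6 and the control, 2 became 0 with no filter (1.91% of all genes called higher and 1.24% lower) or with the set defined without Lyz1 (Klf2 and Klf4 then had adjusted p values of 0.360 and 0.263). The count was 1 with median-ratio scaling (5.33% and 3.67%), with the planned set or with a log2 difference of at least 1 required. It was 5 with only the groups compared (11.1% and 10.9%) or with the trends removed (7.13% and 6.96%), and 0 to 6 with 1 library left out, the 6 without IL-4 #3 (12.3% and 12.4%). Here the count stayed at 2 with a pseudocount of 1, where Klf4 was lost (adjusted p = 0.0710) and Klf7 gained (0.0490), and with quantile normalization, where Klf2 was lost (0.0904) and Klf7 gained (0.0376). Between IL-6 and IL-4, 7 became 3 with no filter (8.58% of all genes called higher and 5.61% lower) or with only the groups compared (14.1% and 9.36%), against 20.8% and 13.3% in the main fit. The count was 4 with a log2 difference of at least 1 required and 2 to 7 with 1 library left out. Shares of all genes are not given for the sets, the required log2 difference or the other libraries left out, so those counts are not read as a result about the members. With the mouse as a replicate block the counts were 2, 2 and 7, and Klf11 was the only member whose call changed. Differences that were not called changed sign in places. Between IL-4 and the control these were Klf2 (-0.042 with either set, -0.0089 to 0.24 with 1 library left out), Klf6 (-0.031 to 0.29 with 1 library left out), Klf7 (0.079 with quantile normalization, 0.52 with either set, -0.62 to 0.44 with 1 library left out), Klf13 (0.063 with trends removed, -0.49 to 0.012 with 1 library left out) and Klf16 (-0.12 with either set). Klf9 was 1.31 between IL-6 and the control with the set without Lyz1. This value carries the difference between IL-4 #1 (26.7 FPKM) and IL-4 #2 and #3 (28.8 and 2.43) into that comparison. Between IL-6 and IL-4, Klf6 was -0.10 with median-ratio scaling, -0.11 with the planned set, -0.19 with trends removed and -0.10 to 0.22 with 1 library left out, and Klf11 was -0.020 with quantile normalization. Apart from these properties of the set fits, the cause of the sign changes was not tested. Klf9 gained a call between IL-4 and the control with quantile normalization (adjusted p = 0.0402) and with trends removed (0.0372). Median-ratio scaling moved the median of all tested genes between IL-4 and the control from -0.20 to -0.01. The values of the members rested on 60 or more fragments in every library, and each group had 3 libraries. Klf7, Klf11 and Klf16 fell under the filter at a mean of 5 FPKM and have no value there.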

Other observations

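The balance between related members differed by group, with ratios of FPKM given as a description. Klf2 over Klf4 was 5.07 to 13.3 in the control libraries, 0.289 to 0.801 with IL-4 and 3.78 to 6.07 with IL-6, so Klf4 exceeded Klf2 in the IL-4 libraries alone. Klf10 over Klf11, the TGF-β-inducible pair, was 3.30 to 3.81 in the control, 12.0 to 15.0 with IL-4 and 5.50 to 5.57 with IL-6, with no overlap between groups. IL-4 #3 held the highest ratio, 15.0, above 12.0 in IL-4 #1 and 12.6 in IL-4 #2.

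Genes of the signals known to induce Klf9, Klf10 and Klf11 gave mixed counts. Of 5 tested glucocorticoid-responsive genes, Sgk1 was called with IL-4 (0.71 ± 0.166, adjusted p = 0.0156) and Dusp1 with IL-6 (1.06 ± 0.242, adjusted p = 0.0332). Between IL-6 and IL-4, Tsc22d3 was lower with IL-6 (-0.85 ± 0.206, adjusted p = 0.0147) and Per1 was higher (1.05 ± 0.212, adjusted p = 0.00639). Of 6 TGF-β-responsive genes, Smad6, an inhibitory SMAD, was lower with IL-4 (-1.88 ± 0.242, adjusted p = 0.000849) and higher with IL-6 (1.14 ± 0.242, adjusted p = 0.0247), and no other was called against the control. Smad6 (3.02 ± 0.242, adjusted p = 4.58e-05) and Skil (1.81 ± 0.433, adjusted p = 0.0139) were higher with IL-6 than with IL-4, and none was lower. Without IL-4 #3, Skil, Per1 and Sgk1 were also called between IL-6 and the control, and Tsc22d3 was called lower. Fibroblast markers summed to at most 0.743 FPKM and enterocyte markers to at most 2.79 FPKM in any library, erythroid markers to 1.01 to 12.3 and skeletal muscle markers to 1.91 to 14.6.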
